A study of Rattus norvegicus with 48 samples.

Results

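The genes described here are the direct targets of cocaine and the genes on which the monoamines act or by which they are broken down. There are 8 of them among the 30211 genes of the deposited table, and they were picked by name: the transporters Slc6a2, Slc6a3 and Slc6a4, the dopamine receptors Drd1 and Drd2, the signalling protein gene Ppp1r1b, and the monoamine oxidases Maoa and Maob. Of these, 5 reached the level needed for a test, and the 3 transporters did not.

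Dopamine, noradrenaline and serotonin are released by a small number of neurons in the midbrain and hindbrain and taken back up by transporters in the plasma membrane of those same neurons. Cocaine blocks these transporters, so that the amines stay longer at receptors on other cells. Dopamine receptors raise or lower cyclic AMP in the receiving neuron, DARPP-32, the product of Ppp1r1b, passes the signal on through protein phosphatase, and the monoamine oxidases of the outer mitochondrial membrane degrade the amines.

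RNA-seq libraries were made from polyA RNA of primary rat cortical cultures, prepared as mixed neuronal cultures from Sprague-Dawley fetuses of 18 days and used after 21 days in vitro. There were 16 groups of 3 libraries and 48 in all, and no genotype beyond the strain is labelled. Control cultures received neither Tat, cocaine nor a compound, and the vehicle they received is not given in the sources used here. Tat, the HIV-1 transactivator protein, was given at 6 ng/mL for 48 h, and cocaine hydrochloride at 25 µM for 24 h. The groups Tat, Cocaine and Tat-Cocaine received these alone or together. Each of 4 compounds was given for 48 h by itself, together with Tat, or together with both Tat and cocaine, which gives names such as 4OI, Tat-4OI and Tat-Cocaine-4OI. The compounds were 4OI (250 µM), an ester of itaconate that enters cells, Amlexanox (25 µM), an inhibitor of inflammatory kinases, Tazemetostat (3 µM), an inhibitor of the histone methyltransferase EZH2, and Senicapoc (1 µM), a blocker of a calcium-activated potassium channel. How many fetuses or platings stand behind the 3 libraries of a group is not stated, so that p-values measure the spread between these libraries, which may be technical.

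Values are CPM, read counts scaled by the authors to a common library size, and folds are differences of log2(CPM + 0.5) from limma, with a false discovery rate (FDR) over 15890 genes and FDR under 0.05 as the call. Depth was 17.5 to 29.1 M reads per library (median 22.4 M), and 1 read was worth 0.0334 to 0.0583 CPM. The label names neurons, but the libraries also held RNA of other cells. Neuronal markers (12 genes from Map2 to Gad2) summed to 1236 to 5347 CPM per library and astrocyte markers (10 genes, Gfap among them) to 5823 to 14320 CPM. One library stood apart. In Cocaine replicate 3 the oligodendrocyte lineage markers (9 genes) summed to 23720 CPM, against 1889 and 1473 CPM in the other Cocaine libraries. All 47 other libraries lay between 361.8 and 2429 CPM. The main cocaine results are given with and without it.

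RNA of the 3 transporters was close to absent in every group. Slc6a2, the noradrenaline transporter, had 25 reads in all 48 libraries together, was at 0 in 33 of them, and had at most 4 reads (0.180 CPM) in one. Slc6a3, the dopamine transporter and the best known target of cocaine, had 73 reads in all and was at 0 in 18 libraries. Its most reads were 7 (Control replicate 1, 0.268 CPM) and its highest level 0.298 CPM (Tat-Senicapoc replicate 1, 6 reads). Slc6a4, the serotonin transporter, had 171 reads and was above 0 in 47 libraries. Its most reads were 9 (Senicapoc replicate 3, 0.309 CPM) and its highest level 0.357 CPM (Tat-Cocaine-Tazemetostat replicate 2, 7 reads). None of the 3 came to 0.5 CPM in any library.

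No difference between treatments was called at these levels. The 18 libraries with cocaine held 2 reads of Slc6a2, 22 of Slc6a3 and 63 of Slc6a4, and the 18 libraries of the matching groups without cocaine held 12, 35 and 69. When the level minimum was dropped and 24049 genes were tested, the transporters gave cocaine differences, as the mean over 6 backgrounds, of -0.07 (SE 0.0311, FDR 0.202), -0.09 (FDR 0.524) and -0.07 (FDR 0.584) on the log2 scale, and none was called in any of the 10 main comparisons.

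**Figure D1:**
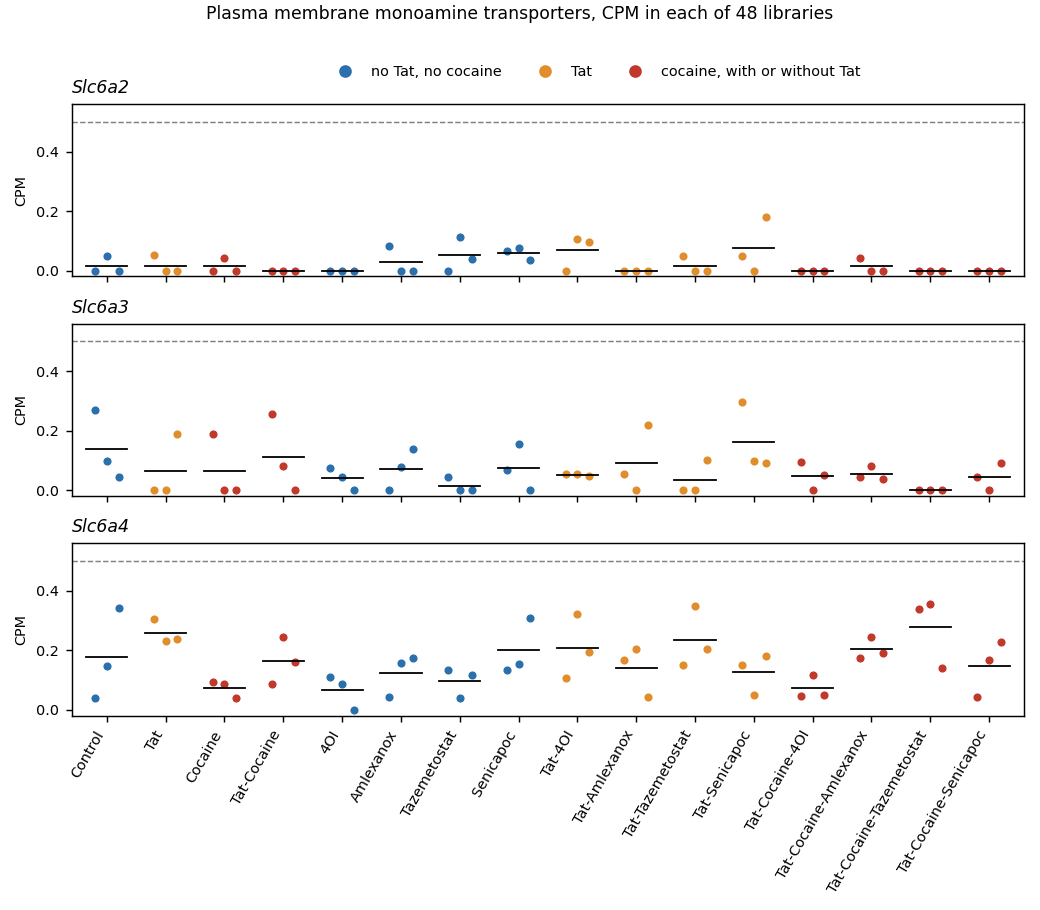
CPM of the 3 plasma membrane monoamine transporters in each of the 48 libraries (points, 3 per group) with the group mean (black line); the dashed line is the level minimum of 0.5 CPM. No library reaches the line, and the highest point of each gene is 0.180 CPM for Slc6a2, 0.298 CPM for Slc6a3 and 0.357 CPM for Slc6a4.

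Markers of the neurons that carry these transporters ranged from 0 to 9.75 CPM in their mean over all libraries. Foxa2, a factor of midbrain dopamine neurons, was at 0 in all 48 libraries. Fev, a factor of serotonin neurons, was above 0 in 6 libraries and Lmx1b in 7. Of the enzymes, tyrosine hydroxylase (Th) averaged 0.688 CPM over all libraries, tryptophan hydroxylase 2 (Tph2) 1.05 CPM, the decarboxylase Ddc 0.142 CPM and dopamine beta-hydroxylase (Dbh) 0.158 CPM. The vesicular transporter Slc18a2, which loads the amines into vesicles, averaged 5.94 CPM and was above 0 in every library. The summed level of the 8 dopamine neuron markers ranged from 12.8 to 23.4 CPM per library, most of it Nr4a2 (9.75 CPM) and Slc18a2.

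The receiving side was measured in every group. Drd1, the receptor that raises cyclic AMP, lay between 1.94 and 13.2 CPM (median 6.14), and Drd2, the receptor that lowers it, between 0.357 and 5.76 CPM (median 2.22). Of the other dopamine receptors, Drd3 (0.121 CPM on average), Drd4 (0.0326 CPM) and Drd5 (0.0881 CPM) did not reach the level needed for a test. Ppp1r1b spanned 18.1 to 268 CPM, Maoa 59.9 to 103.7 CPM and Maob 35.1 to 255 CPM. Group means of Drd1, Drd2, Maoa and Ppp1r1b were all lowest in Tat-Cocaine-Tazemetostat cultures. The highest group means were those of Amlexanox for Drd1 (10.3 ± 2.50 CPM, SD, n = 3) and Drd2 (4.14 ± 0.435 CPM), of Cocaine for Maoa (96.6 ± 10.4 CPM), of 4OI for Ppp1r1b (208 ± 25.3 CPM) and of Tat-Cocaine-Amlexanox for Maob (205 ± 35.8 CPM). Cocaine replicate 3 had the highest Maoa value of all libraries (103.7 CPM, against 101.4 and 84.7 CPM in replicates 1 and 2). Without it the Cocaine mean falls under that of Amlexanox (95.8 CPM). With the 16 groups put in order of their means, neighbouring groups overlapped in 15 of 15 pairs for Drd1, Drd2, Ppp1r1b and Maob and in 14 of 15 for Maoa. The order of neighbours is therefore not resolved by 3 libraries a group.

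**Figure D2:**
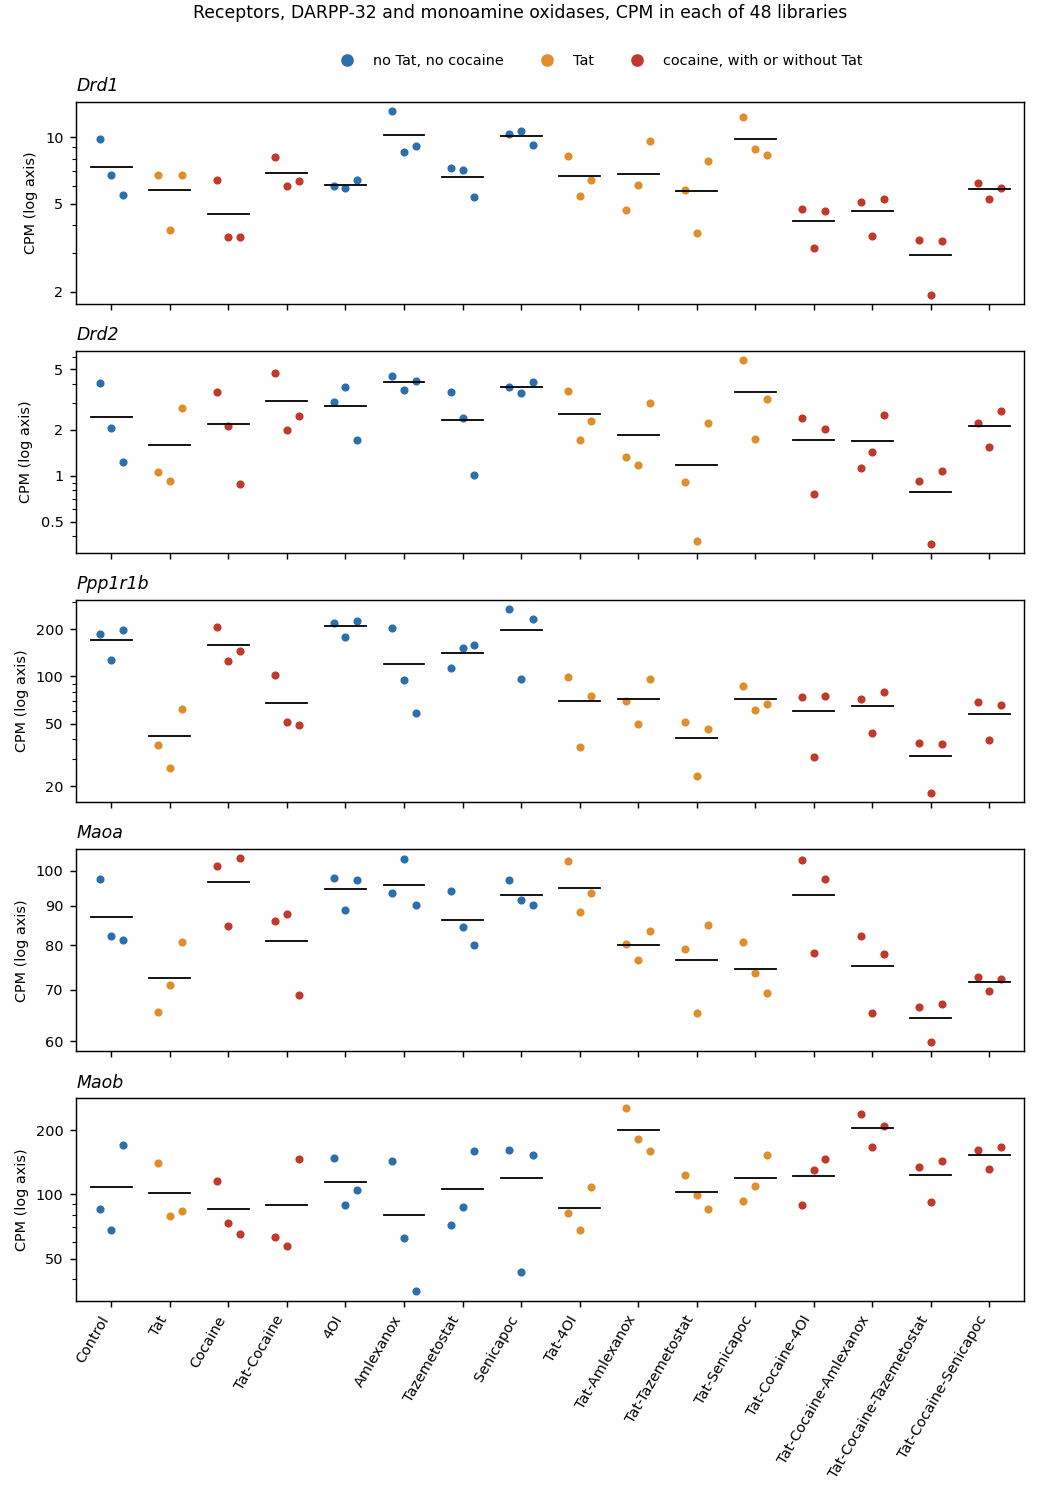
CPM (log axis) of Drd1, Drd2, Ppp1r1b, Maoa and Maob in each of the 48 libraries (points, 3 per group, replicates 1 to 3 from left to right) with the group mean (black line). Ppp1r1b points lie between 18.1 and 103 CPM in the groups with Tat and between 58.6 and 268 CPM in those without, and the group means of Maob are highest in the 2 groups with both Tat and Amlexanox.

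For Drd1 and Drd2 the reference sequence upstream of the annotated gene start is shown, since the levels of the 2 receptors varied together across libraries while their windows differ in composition. The sequences are from RefSeq on build GRCr8, which is not the build of the alignment, and cover the 250 bases before the start, 5′ to 3′ on the strand of the gene. Of the 8 genes 5 had an entry: Slc6a3, Drd1, Drd2, Maoa and Maob. Capitals mark the letters GGGCGG or their reverse complement CCGCCC, the GC box bound by Sp1. It was searched on both strands, and 30.5% of the 33469 promoter windows of the same length hold it. Whether transcription begins at the annotated starts in these cultures was not tested, so that a window may not be the promoter in use. The Drd1 window (chr17:10546354-10546603, plus strand) had no match and 51.2% G and C bases, the median of all windows. The Drd2 window (chr8:58605153-58605402, plus strand) had 2 matches and 66% G and C.
Drd1: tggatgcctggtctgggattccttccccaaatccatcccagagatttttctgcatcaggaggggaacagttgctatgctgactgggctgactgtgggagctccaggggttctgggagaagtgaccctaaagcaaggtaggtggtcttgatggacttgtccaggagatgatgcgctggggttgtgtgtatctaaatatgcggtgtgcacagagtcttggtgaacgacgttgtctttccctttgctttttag
Drd2: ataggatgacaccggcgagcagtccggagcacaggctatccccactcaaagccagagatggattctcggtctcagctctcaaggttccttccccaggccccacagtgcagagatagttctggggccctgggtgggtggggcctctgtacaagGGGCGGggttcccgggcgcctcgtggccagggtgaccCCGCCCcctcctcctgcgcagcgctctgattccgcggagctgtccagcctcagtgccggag

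For the 2 monoamine oxidases the upstream windows are shown because the genes are neighbours on the X chromosome and are transcribed towards each other, yet were called in different comparisons. Maoa (chrX:8681373-8681622, minus strand, 62.4% G and C) had 4 matches to GGGCGG or CCGCCC, which begin 153, 99, 77 and 50 bases before the start. Maob (chrX:8490155-8490404, plus strand, 63.6% G and C) had 2 matches, at 159 and 127 bases. Coordinates and letters are those of GRCr8, and capitals mark the matches as above.
Maoa: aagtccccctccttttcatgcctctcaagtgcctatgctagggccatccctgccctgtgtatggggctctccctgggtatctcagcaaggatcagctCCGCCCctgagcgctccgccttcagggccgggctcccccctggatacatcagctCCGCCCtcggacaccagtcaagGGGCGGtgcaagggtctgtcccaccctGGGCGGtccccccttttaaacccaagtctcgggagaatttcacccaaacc
Maob: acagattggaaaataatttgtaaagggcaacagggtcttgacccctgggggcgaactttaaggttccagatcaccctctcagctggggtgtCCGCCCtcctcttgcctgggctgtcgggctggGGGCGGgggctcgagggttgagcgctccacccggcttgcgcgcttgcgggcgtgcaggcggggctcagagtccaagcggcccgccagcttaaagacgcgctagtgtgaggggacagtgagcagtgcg

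None of the 4 windows held the cyclic AMP response element TGACGTCA, which 1.59% of all windows hold. A match is a description of letters and not a site. Across the 16 group means of log2(CPM + 0.5) Maoa and Maob had a Pearson correlation of -0.49, and across the 48 libraries with group means removed -0.18.

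Cocaine was compared with no cocaine in 6 backgrounds, namely without Tat, with Tat, and with Tat and each of the 4 compounds. Of the 5 genes 1 was called, Drd1, which fell. Its log2 difference as the mean over the 6 backgrounds was -0.51 (SE 0.108, FDR 0.00284), from 7.02 CPM without cocaine to 4.81 CPM with it, where 8.94% of all genes tested were called. Drd1 was lower in 5 of the 6 backgrounds. Without Cocaine replicate 3 the difference was -0.48 (FDR 0.00568), without the Cocaine and Control groups it was -0.47 (FDR 0.0163), and without the Tazemetostat background it was -0.44 (FDR 0.0255).

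The single libraries show where this difference lay. In Cocaine cultures Drd1 was 6.42, 3.53 and 3.54 CPM, and in Control cultures 9.82, 6.72 and 5.49 CPM, so that 2 of the 3 Cocaine libraries were under every Control library and 1 was not. The groups did not overlap with Tat and 4OI (4.73, 3.15 and 4.61 CPM with cocaine against 8.19, 5.43 and 6.37 CPM without). They did not overlap either with Tat and Tazemetostat (3.43, 1.94 and 3.38 CPM against 5.75, 3.69 and 7.76 CPM) or with Tat and Senicapoc (6.23, 5.27 and 5.90 CPM against 12.3, 8.82 and 8.29 CPM). With Tat and Amlexanox the libraries overlapped (5.09, 3.55 and 5.25 CPM against 4.67, 6.06 and 9.64 CPM). With Tat alone the sign was the opposite one, at 8.17, 6.02 and 6.36 CPM with cocaine and 6.74, 3.82 and 6.76 CPM without.

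In no single background was Drd1 called. Its unadjusted p was under 0.05 in 4 of the 6 backgrounds. The difference was -0.66 (FDR 0.274) for Cocaine against Control, where 0.201% of all genes were called, and 0.26 (FDR 0.745) for Tat-Cocaine against Tat, where 0.0189% were called. In the other backgrounds it was between -0.85 and -0.47, where 0.183% of all genes were called with Tat and Senicapoc and 0% in the other 3 (258 to 1473 genes at an unadjusted p under 0.05). Leaving out Cocaine replicate 1, the highest of its group, gave -0.92 (FDR 0.0299) for Cocaine against Control, and leaving out replicate 3 gave -0.53 (FDR 1.00). The 6 differences ran from -0.85 to 0.26, and the F test of their inequality gave an FDR of 0.866.

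Some neuronal markers also fell with cocaine. Of the 12 in the list 5 were lower and 0 higher, where 6.03% of all genes were called as lower, with a median difference of -0.42 against 0.01 over all genes, and without Cocaine replicate 3 the same 5 were lower. None of the 12 was called for Cocaine against Control (median -0.75) or for Tat-Cocaine against Tat, where the median was positive (0.25), as was the Drd1 difference. Over the 5 backgrounds with Tat 3 of the 5 were lower, Gad1, Gad2 and Tubb3. The 5 were Gad2 (-0.89, FDR 2.7e-04) and Gad1 (-0.71, FDR 2.0e-04), the enzymes that make GABA, Tubb3 (-0.70, FDR 9.48e-05), Nefm (-0.58, FDR 0.0115) and Syt1 (-0.47, FDR 0.0158). The list summed to between 1236 and 4497 CPM in the 18 libraries with cocaine (median 2529) and between 1508 and 4995 CPM in the 18 matching ones (median 3553). Markers of striatal projection neurons, the cells best known for these receptors, were lower in 2 of 11 (Pde10a and Meis2) and higher in 0, with a median of -0.17. Nr4a2 was the 1 of 4 dopamine neuron markers that was lower, and none of 2 serotonin and 3 noradrenaline neuron markers was called. No marker was called among 10 of astrocytes, 10 of microglia, 9 of the oligodendrocyte lineage, 8 of vessels and fibroblasts and 5 of ependyma and choroid plexus. In bulk RNA fewer neurons and less RNA per neuron cannot be told apart, and the part of either in the lower Drd1 level was not tested.

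The other 4 genes showed no called difference with cocaine. Drd2 differed by -0.12 (95% interval -0.48 to 0.25, FDR 0.757) as the mean over the 6 backgrounds, with 1.93 CPM with cocaine and 2.19 CPM without. Ppp1r1b differed by -0.07 (-0.43 to 0.28, FDR 0.848), Maoa by -0.02 (-0.11 to 0.07, FDR 0.829) and Maob by 0.11 (-0.24 to 0.45, FDR 0.763). Without Cocaine replicate 3 the 4 differences were -0.05, -0.07, -0.03 and 0.14 in the same order, with none called. The interval is narrowest for Maoa and leaves room for a change of Drd2, Ppp1r1b or Maob in either direction. These intervals use the normal quantile in place of the t quantile of the test, and so are somewhat too narrow. For Drd2 in Cocaine against Control the sign rested on single libraries: the difference was -0.15, but 0.26 without Cocaine replicate 3, which had 0.885 CPM against 3.56 and 2.13 CPM in the other 2, and 0.22 without Control replicate 1.

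**Figure D3:**
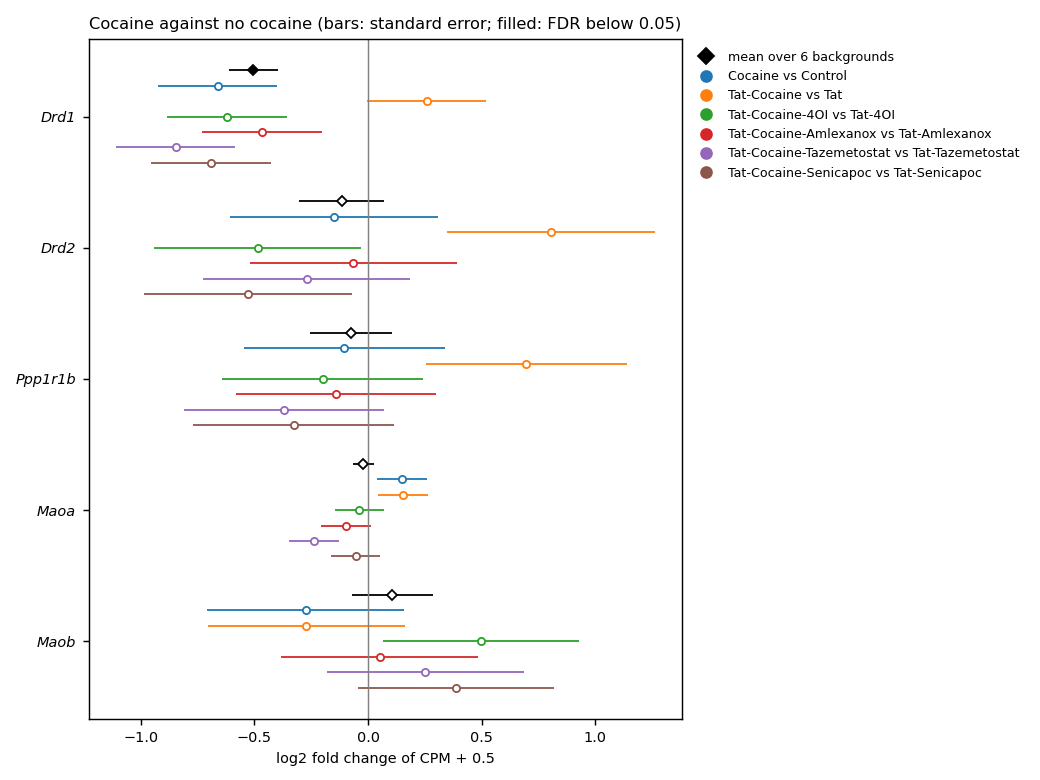
Log2 fold change of CPM + 0.5 (horizontal axis) for cocaine against no cocaine in each of 6 backgrounds (coloured circles) and as their mean (black diamonds), with standard errors; filled symbols have an FDR under 0.05. The mean of Drd1 at -0.51 is the filled symbol, and Tat-Cocaine against Tat lies to the right of the other backgrounds for Drd1, Drd2 and Ppp1r1b.

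Among 71 other genes of monoamine synthesis, uptake, reception and breakdown, of DARPP-32 signalling and of cocaine binding and hydrolysis, 53 were tested. With cocaine 0 were higher and 4 lower (7.55% of those tested, against 6.03% of all genes). These were the alpha-1 adrenergic receptors Adra1d (-0.83, SE 0.159, FDR 0.00112) and Adra1b (-0.49, FDR 0.0365), the low-affinity monoamine transporter Slc29a4 (-0.43, FDR 0.00504) and the serotonin receptor Htr1f (-0.31, FDR 0.0493). Htr1f was near the floor, with a mean of 0.357 CPM over all libraries, under the level minimum of 0.5 CPM. Its fold is therefore a description. Adra1d and Slc29a4 were the 2 called both without Cocaine replicate 3 and over the 5 backgrounds with Tat. Adra1d averaged 2.77 CPM with cocaine and 5.31 CPM without, and Slc29a4 20.6 and 28.3 CPM. None of the 12 DARPP-32 signalling genes, 6 synthesis genes, 5 other breakdown genes, 5 histamine genes or 4 genes of cocaine binding and hydrolysis was called.

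Ppp1r1b, Drd2 and Maoa fell with Tat. As the mean over 5 backgrounds (no compound and each of the 4 compounds, all without cocaine) 3 of the 5 were called and all 3 fell, where 56.5% of all genes tested were called and 26.7% were called as lower. Ppp1r1b fell by 1.51 on the log2 scale (SE 0.197, FDR 8.66e-08), from 168 to 59.1 CPM. Drd2 fell by 0.54 (SE 0.204, FDR 0.0244) and Maoa by 0.20 (SE 0.0489, FDR 7.46e-04). Drd1 differed by -0.22 (FDR 0.108), and passed the test without Tat-Amlexanox replicate 3 (-0.27, FDR 0.0412), without Tat-Tazemetostat replicate 3 (-0.27, FDR 0.0494) and after quantile normalization (-0.30, FDR 0.0276). Maob differed by 0.26 (FDR 0.262). The Tat libraries of this comparison are also the controls of the cocaine comparison, so that the 2 are not independent.

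Ppp1r1b, which turns DARPP-32 signalling into inhibition of protein phosphatase 1, was lower in all 5 backgrounds. In Tat cultures it was 36.7, 26.3 and 62.4 CPM and in Control cultures 186, 128 and 197 CPM, a difference of -2.08 (SE 0.441, FDR 7.18e-04), where 21.3% of all genes were called. The groups did not overlap. With 4OI it was 98.6, 35.5 and 74.7 CPM with Tat against 219, 179 and 226 CPM without (-1.69, FDR 0.0198, 5.18% of all genes called). With Tazemetostat it was 51.1, 23.3 and 46.6 CPM against 114, 151 and 158 CPM (-1.86, FDR 0.00343, 16.1% called), and the groups stayed apart in both compounds.

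With Senicapoc and with Amlexanox the spread without Tat was wider. Ppp1r1b was 268, 96.7 and 232.5 CPM in Senicapoc cultures and 87.3, 60.8 and 66.7 CPM in Tat-Senicapoc cultures (-1.36, FDR 0.0317, 16% called). In Amlexanox cultures it was 205, 95.3 and 58.6 CPM and in Tat-Amlexanox cultures 69.8, 49.6 and 96.9 CPM, so that the groups overlapped and the difference of -0.59 (FDR 0.286) was not called. The single calls depended on libraries. Leaving out one of 3 libraries with 4OI (4OI replicate 1 or 3 or Tat-4OI replicate 2), Tat-Tazemetostat replicate 2, or one of 4 with Senicapoc (Senicapoc replicate 1 or 3, Tat-Senicapoc replicate 2 or 3) brought the FDR to between 0.0536 and 0.204, while the difference stayed between -2.06 and -1.08 over all libraries left out in turn from these 3 comparisons. The call for Tat against Control and the mean over 5 backgrounds held in every such fit, with FDR values of at most 0.0122 and 3.26e-07. The F test of a difference between the 5 backgrounds gave an FDR of 0.442.

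Cocaine on top of Tat left Ppp1r1b under Control. Tat-Cocaine cultures had 103, 51.3 and 49.4 CPM, all under the 3 Control libraries, and differed from Control by -1.38 (FDR 0.0299), 1 of 5 genes called where 14.9% of all genes were. That call was lost without Control replicate 1 or 3 or Tat-Cocaine replicate 2 or 3, with FDR values up to 0.123, and also in a fit to the 2 groups alone (FDR 0.0595). Tat-Cocaine and Tat differed by 0.70 (FDR 0.641).

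Drd2 was lower with Tat in all 5 backgrounds, by 0.14 to 1.06 on the log2 scale. The widest gap was with Amlexanox, where it was 4.55, 3.69 and 4.17 CPM without Tat and 1.34, 1.18 and 3.01 CPM with it, with no overlap (-1.06, FDR 0.0609). In this background the deviations of same-numbered libraries were weakly correlated (0.176 to 0.237). A block of the replicate number, shared by all 16 groups, is not a paired test of this background. With it the falls of Drd2 (FDR 0.0369), of Drd1 (-0.60, FDR 0.0676 without and 0.0276 with the block) and of Maoa (-0.26, FDR 0.0603 and 0.0320) passed the test. In Tat against Control the libraries overlapped, at 1.06, 0.92 and 2.79 CPM against 4.06, 2.06 and 1.23 CPM (-0.49, FDR 0.457). The FDR of the mean over 5 backgrounds moved to between 0.0504 and 0.0553 without Control replicate 1, Tazemetostat replicate 1, Tat-Tazemetostat replicate 2 or Tat-Senicapoc replicate 2.

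Maoa, which degrades serotonin and noradrenaline by preference, was lower with Tat in 4 of 5 backgrounds. Tat cultures had 65.6, 71.0 and 80.9 CPM and Control cultures 97.5, 82.2 and 81.3 CPM. The groups did not overlap, but the difference did not pass the test (-0.26, FDR 0.0822), and did without Tat replicate 3 (-0.34, FDR 0.0341), with the replicate number as a block (FDR 0.0420) and after quantile normalization (FDR 0.0466). With Senicapoc it was 80.7, 73.6 and 69.3 CPM with Tat against 97.2, 91.7 and 90.3 CPM without (-0.32, FDR 0.0413). This single call was lost when any of 5 of the 6 libraries was left out (all but Tat-Senicapoc replicate 1), with FDR values from 0.0653 to 0.177. With 4OI there was no gap, at 103, 88.4 and 93.6 CPM with Tat and 97.8, 88.9 and 97.1 CPM without (0.00, FDR 0.991).

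Maob, which is expressed in astrocytes and in serotonin neurons, was called in 1 background, where it rose. In Tat-Amlexanox cultures it was 255, 183 and 160 CPM and in Amlexanox cultures 143, 62.4 and 35.1 CPM, with no overlap and a difference of 1.52 (SE 0.433, FDR 0.00743), where 39.6% of all genes were called. In the other 4 backgrounds its difference lay between -0.40 and 0.18 with none called, and the F test over the 5 backgrounds gave an FDR of 0.249. Without Amlexanox replicate 3, its lowest library, the difference was 1.05 (FDR 0.0948). Astrocyte markers summed to 13670, 9043 and 5823 CPM in the same 3 Amlexanox libraries and to 10410, 9730 and 9435 CPM in the Tat-Amlexanox ones. Maob and Ppp1r1b were thus lowest in the Amlexanox library with the least astrocyte RNA. The same held in Senicapoc replicate 2, with 8240 CPM of astrocyte markers against 13300 and 13330 CPM, 43.1 CPM of Maob against 162 and 153 CPM, and 96.7 CPM of Ppp1r1b against 268 and 232.5 CPM. The part of astrocyte RNA in these differences was not tested.

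**Figure D4:**
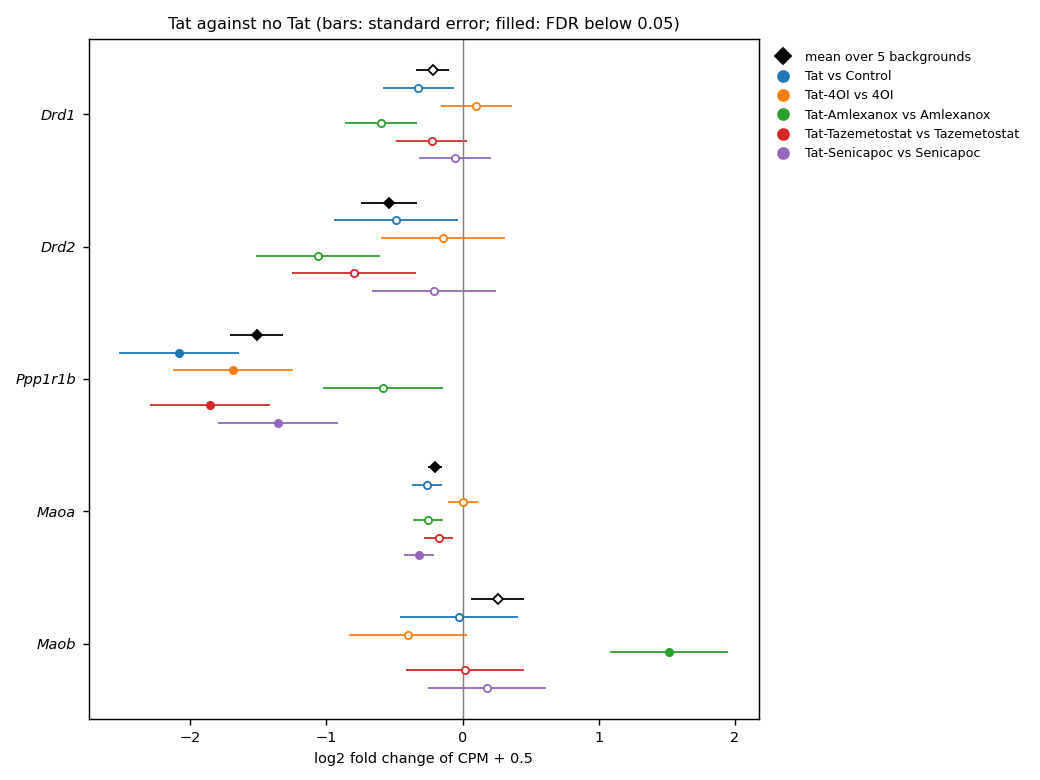
Log2 fold change of CPM + 0.5 (horizontal axis) for Tat against no Tat in each of 5 backgrounds (coloured circles) and as their mean (black diamonds), with standard errors; filled symbols have an FDR under 0.05. All 5 Ppp1r1b values lie left of 0, between -2.08 and -0.59, and the Maob value with Amlexanox lies at 1.52.

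Cell type markers were called with Tat in most lists, where 29.9% of all genes tested were called as higher and 26.7% as lower. Of 12 neuronal markers 8 were lower and 0 higher (median -0.37), and the list summed to 1508 to 4973 CPM in the 15 libraries with Tat and to 2833 to 5347 CPM in the 15 without. Of 11 striatal projection neuron markers 3 were lower and 2 higher (median -0.06, summed 156.4 to 383 CPM with Tat and 196.7 to 360.2 CPM without). Of 10 astrocyte markers 5 were lower and 2 higher (summed 6778 to 10890 CPM with Tat and 5823 to 14320 CPM without). Of 10 microglial markers 5 were higher and 1 lower (843 to 5290 CPM and 956.7 to 2890 CPM). With 56.5% of all genes called, counts of 7 of 10 and 6 of 10 are near the share of the whole table. The part of cell composition in the lower Ppp1r1b, Drd2 and Maoa levels was not tested. Vessel and fibroblast markers were higher in 2 and lower in 3 of 8, dopamine neuron markers higher in 2 and lower in 1 of 4, serotonin neuron markers higher in 1 and lower in 1 of 2, and noradrenaline neuron markers higher in 1 of 3. None of the 9 oligodendrocyte lineage and 5 ependymal and choroid markers was called.

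Of the 53 other monoamine and signalling genes tested, 8 were higher and 22 lower with Tat (15.1 and 41.5%, against 29.9 and 26.7% of all genes). In synthesis, GTP cyclohydrolase (Gch1), which starts the synthesis of the cofactor tetrahydrobiopterin, rose from 3.63 to 13.7 CPM (1.88, SE 0.178, FDR 1.04e-10), while Tph2 fell by 0.71 (FDR 0.00169), and in all 1 of 6 was higher and 3 lower. Among the transporters, 2 of 5 were higher and 2 lower. The organic cation transporter Slc22a2 rose from 0.0808 to 0.521 CPM (0.75, FDR 1.38e-05) and Slc29a4 fell by 0.52 (FDR 1.31e-04). Slc22a2 was near the floor and above 0 in 36 of the 48 libraries. At 0.0808 CPM the 15 libraries without Tat could not have passed the level minimum by themselves, so that its fold is a description. Among the adrenergic receptors 4 of 7 were lower and 0 higher. Adra2c fell by 1.04 (FDR 3.28e-06) and Adra1b by 0.57 (FDR 0.00398).

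Serotonin receptors were called in 2 of 9, with Htr2b higher (0.62, FDR 0.0122) and Htr1a lower (-0.49, FDR 2.65e-04). All 5 histamine genes tested were called, 1 higher and 4 lower. The receptor Hrh3 fell by 0.83 (FDR 6.25e-04) and the methyltransferase Hnmt, which inactivates histamine, by 0.72 (FDR 1.96e-06). Among other breakdown enzymes the sulfotransferase Sult1a1 fell by 0.92 (FDR 4.42e-04) and aldose reductase Akr1b1 rose by 0.18 (FDR 0.0121). Of the 12 genes that act with DARPP-32, 6 were lower and 1 higher. Ppp1r1a, the gene of a related phosphatase inhibitor, fell by 0.75 (FDR 3.76e-06), and Cdk5r1, the activator of the kinase Cdk5, which phosphorylates DARPP-32, by 0.54 (FDR 5.18e-04). Of the genes that bind or cleave cocaine, the carboxylesterase Ces1d rose from 0.449 to 2.14 CPM (1.40, FDR 3.19e-11) and butyrylcholinesterase (Bche) fell by 0.26 (FDR 0.0167), while Tmem97 was not called.

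The 4 compounds were each compared with their absence in 3 backgrounds (no Tat, Tat, and Tat with cocaine), and all 4 share the same Control, Tat and Tat-Cocaine libraries. With 4OI 1 of 5 genes was called, where 22.8% of all genes tested were. Maoa rose by 0.24 (SE 0.0631, FDR 0.00558), from 80.1 to 94.2 CPM, and was higher in 3 of 3 backgrounds. The gap was widest with Tat. Tat-4OI cultures had 103, 88.4 and 93.6 CPM against 65.6, 71.0 and 80.9 CPM in Tat cultures, with no overlap (0.39, FDR 0.0135, where 15.6% of all genes were called). Without Tat replicate 1 or 2 or Tat-4OI replicate 1 the FDR was 0.0597 to 0.0941. With no Tat the difference was 0.12 (FDR 0.742) and with Tat and cocaine 0.20 (FDR 0.304), and a difference between the 3 backgrounds was not called (FDR 0.537). With 4OI, 4 of 10 astrocyte markers were higher, 7 of 10 microglial and 2 of 8 vessel and fibroblast markers were lower, and none of the 12 neuronal markers was called, and their part in the Maoa level was not tested.

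With Amlexanox 0 of 5 genes were called (0 is also the count in every alternative fit, and 7.99% of all genes tested were called, 3568 genes at an unadjusted p under 0.05). Maob had an unadjusted p of 0.0246 in limma (0.59, FDR 0.148). It was highest in the 2 groups with Amlexanox and Tat. It was 255, 183 and 160 CPM in Tat-Amlexanox cultures against 141, 79.5 and 84.0 CPM in Tat cultures (1.00, FDR 0.318). In Tat-Cocaine-Amlexanox cultures it was 238, 167 and 210 CPM, against 63.4, 57.1 and 147 CPM in Tat-Cocaine cultures (1.32, FDR 0.116). The groups did not overlap in either comparison, and the values did not pass the test. Without Tat the sign was negative (-0.55, FDR 0.445), and the difference between the 3 backgrounds had an F test p of 0.00969 from limma that did not hold after adjustment (FDR 0.101).

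With Tazemetostat 0 of 5 genes were called as the mean over 3 backgrounds, where 11.4% of all genes were called. Drd1 differed by -0.42 (FDR 0.0605), Drd2 by -0.63 (FDR 0.0979) and Ppp1r1b by -0.47 (FDR 0.192), each with the same sign in 3 of 3 backgrounds. Most of this came from the background of Tat and cocaine. Against Control and against Tat the differences were -0.12 and -0.02 for Drd1, -0.06 and -0.37 for Drd2, and -0.26 and -0.04 for Ppp1r1b. In limma 2 of the 5 had an unadjusted p under 0.05, Drd1 (0.00856) and Drd2 (0.0227). Drd1 passed without Tat replicate 2, Control replicate 3, Tat-Cocaine replicate 3 or Tat-Tazemetostat replicate 3 (FDR 0.0240 to 0.0495) and with the replicate number as a block (FDR 0.0193), and Drd2 without Tat-Tazemetostat replicate 3 (FDR 0.0374). In the background of Tat and cocaine 3 of 5 genes fell, where 28.7% of all genes were called and 13.4% as lower. Drd1 was 3.43, 1.94 and 3.38 CPM in Tat-Cocaine-Tazemetostat cultures and 8.17, 6.02 and 6.36 CPM in Tat-Cocaine cultures (-1.13, FDR 0.00675). Drd2 was 0.918, 0.357 and 1.08 CPM against 4.77, 2.01 and 2.46 CPM (-1.45, FDR 0.0212). Maoa was 66.4, 59.9 and 67.0 CPM against 86.1, 87.9 and 68.8 CPM (-0.32, FDR 0.0296).

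The groups did not overlap for any of these 3 genes. Each call was lost in 2 or 3 of the 6 fits with a library left out, those without Tat-Cocaine replicate 1 and Tat-Cocaine-Tazemetostat replicate 2 for all 3 and without Tat-Cocaine replicate 2 for Drd2 and Maoa, with FDR values up to 0.141. Ppp1r1b was 37.8, 18.1 and 37.1 CPM against 103, 51.3 and 49.4 CPM and did not pass (-1.10, FDR 0.0558; with the replicate number as a block, FDR 0.00711). Maob differed by 0.58 (FDR 0.312). Against the same Tat-Cocaine libraries Drd1 and Drd2 were also lower with the other compounds, with no call in the main fit. The differences with 4OI, Amlexanox and Senicapoc were -0.66, -0.52 and -0.21 for Drd1 (FDR 0.123, 0.289 and 0.708). For Drd2 they were -0.70, -0.68 and -0.39 (FDR 0.402, 0.427 and 0.693), and for Maoa 0.20, -0.10 and -0.17. Neuronal markers summed to 1236 to 1876 CPM in Tat-Cocaine-Tazemetostat cultures, the lowest mean of the 16 groups (1577 CPM), and to 2670 to 3470 CPM in Tat-Cocaine cultures. Other lists also stood apart between the same groups. Microglial markers summed to 3372 to 5235 CPM against 1475 to 2461 CPM, oligodendrocyte lineage markers to 361.8 to 652 CPM against 880.7 to 2085 CPM, and ependymal and choroid markers to 146.7 to 257.3 CPM against 38.7 to 87.8 CPM. Striatal projection neuron markers were also lower, at 148.4 to 193.8 CPM against 235.4 to 275 CPM, while astrocyte markers overlapped (6148 to 8988 CPM against 7051 to 8943 CPM). The part of these cell types in the lower levels was not tested. Against Control and against Tat alone Tazemetostat gave no call for any of the 5 genes, nor for any gene of the table (0%, with 576 and 851 genes at an unadjusted p under 0.05). The F tests of a difference between the 3 backgrounds gave FDR values of 0.446 for Drd1, 0.494 for Drd2 and 0.460 for Maoa.

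With Senicapoc 0 of 5 genes were called, as in every alternative fit (1.16% of all genes called, 2852 genes at an unadjusted p under 0.05). Drd1 averaged 8.56 CPM with it and 6.66 CPM without (0.33, unadjusted p 0.0369 and FDR 0.244 in limma). Tat-Senicapoc cultures had 12.3, 8.82 and 8.29 CPM of Drd1 against 6.74, 3.82 and 6.76 CPM in Tat cultures, with no overlap (0.74, FDR 0.157). Neuronal markers summed to 4973, 4131 and 4134 CPM in the same Tat-Senicapoc libraries and to 3236, 1790 and 3258 CPM in the Tat ones, also with no overlap, and their part in the Drd1 level was not tested.

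**Figure D5:**
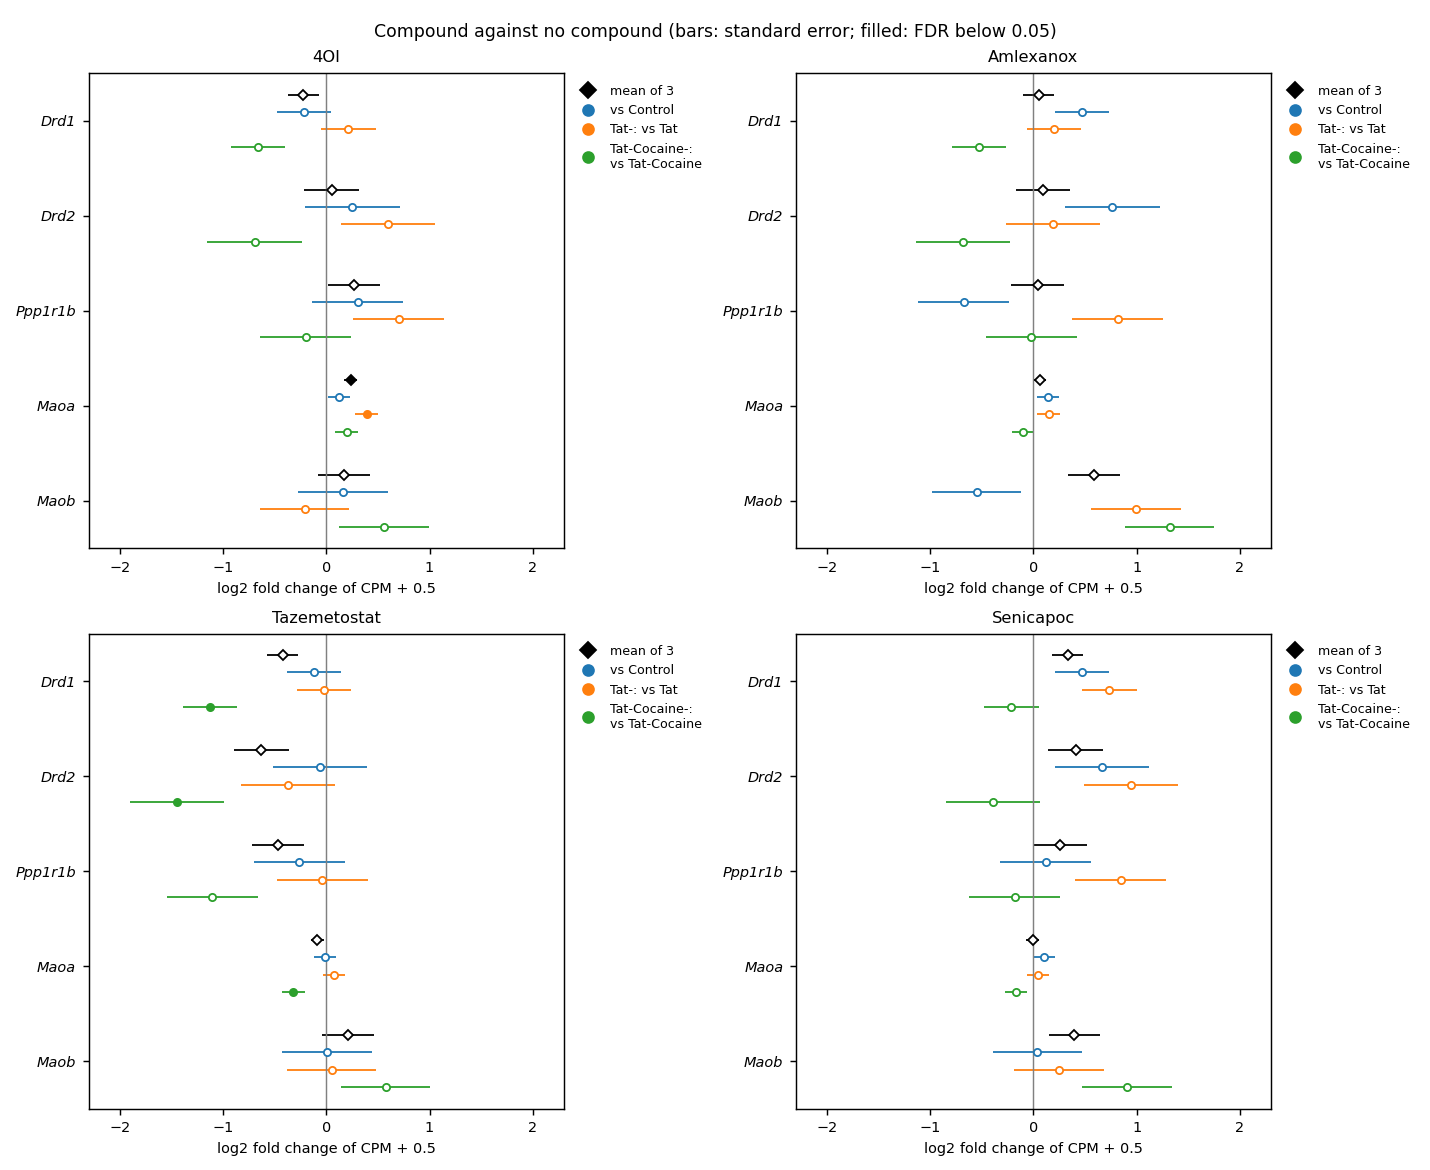
Log2 fold change of CPM + 0.5 (horizontal axes, 1 panel per compound) for each compound against its absence with no Tat, with Tat and with Tat and cocaine (coloured circles) and as their mean (black diamonds), with standard errors; filled symbols have an FDR under 0.05. Filled symbols are Maoa with 4OI (mean and with Tat) and Drd1, Drd2 and Maoa with Tazemetostat in the background of Tat and cocaine.

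Other genes of monoamine handling were called with 3 of the compounds. With 4OI 3 of 53 were higher and 4 lower (13.2% called, against 22.8% of all genes). Among them, Akr1b1 rose by 0.65 (FDR 1.4e-07) and Slc18a2 by 0.24 (FDR 0.0156), while Gch1 fell by 0.84 (FDR 0.00684), Sult1a1 by 0.79 (FDR 0.0324) and Slc22a2 by 0.71 (FDR 0.00205). Slc22a2, as above, was near the floor. With Amlexanox 2 were lower, Sult1a1 (-0.85, FDR 0.0498) and Hnmt (-0.47, FDR 0.0387), and 0 higher (3.77%, against 7.99% of all genes). With Tazemetostat 4 were higher and 4 lower (15.1%, against 11.4%). Htr2b rose by 1.07 (FDR 0.0144), Tmem97 by 0.48 (FDR 0.0243), Slc18a2 by 0.26 (FDR 0.0225) and Akr1b1 by 0.23 (FDR 0.0497). Bche fell by 0.58 (FDR 0.00375), Hrh2 by 0.53 (FDR 0.0314), Hnmt by 0.52 (FDR 0.0229) and Ppp1r1a by 0.51 (FDR 0.0335). With Senicapoc none of the 53 was called.

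The genes also differed in what they followed from library to library. Drd1 and Drd2 had a Pearson correlation of 0.86 over the 16 group means of log2(CPM + 0.5), and of 0.78 over the 48 libraries once group means were removed. Against the summed neuronal markers the values over group means were 0.92 for Drd1 and 0.91 for Drd2, and within groups 0.82 and 0.78. Against the striatal projection neuron markers they were 0.697 and 0.779 over group means, and 0.822 and 0.775 within groups. Maob followed the astrocyte markers within groups (0.78) and not the neuronal ones (-0.05), and over group means neither (0.04 and -0.35). Ppp1r1b lay between, with 0.65 for astrocyte and 0.51 for neuronal markers within groups and 0.79 and 0.62 over group means, and 0.34 over group means for the striatal projection neuron markers. The largest value of Ppp1r1b within groups was with the microglial markers (-0.67). Maoa correlated with the microglial markers at -0.76 over group means and -0.57 within groups, with the oligodendrocyte lineage markers at 0.64 and 0.63, with the neuronal markers at 0.60 and 0.57, and with the astrocyte markers at 0.67 and 0.12. The oligodendrocyte values include Cocaine replicate 3, the library that stood apart, and were not computed without it. All of these correlations are descriptions over libraries that share depth, composition and, within a group, treatment, and carry no test.

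Genes of the whole table with a pattern most like each one over the 16 group means were Olfm1 (0.96), Klc2 (0.96) and Ajap1 (0.96) for Drd1, Ppp1r13b (0.97), Neto2 (0.97) and Srcin1 (0.97) for Drd2, Arxes2 (0.98), Cdh24 (0.97) and Kifbp (0.97) for Ppp1r1b, Rftn2 (0.96) and Btbd1 (0.94) for Maoa, and Zfp574 (0.94), Arl5a (0.92) and Wwc3 (0.91) for Maob. With 15890 genes to choose from and 16 points that share libraries, high values arise in numbers, and they are given as a description only.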

How the data were processed

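Paired-end reads of 48 libraries from directional polyA preparations were trimmed, aligned with STAR (2.7.2) and counted with featureCounts (Subread 1.5.3) by the authors, as the submitters' processing notes and the study's methods state. The sources name different rat builds (Rnor_6.0 and mRatBN7.2), so that no coordinates are given with the counts. The deposited values are a normalized signal, CPM scaled by TMM in edgeR by the authors, 1 column per library. Group means and the columns of 36 comparisons (fold changes, likelihood ratios, p-values and FDR) in the same table were not used. Whole reads could be recovered for 84.5 to 86.7% of values and whole reads or reads counted as 0.5 for 98.2 to 99.1% (tolerance 0.02 reads), so that no count test was run, and read numbers are CPM divided by the value of 1 read.

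Genes with 0.5 CPM or more in at least 3 libraries were tested on log2(CPM + 0.5) in limma 3.58.1 (R 4.3.3, trended moderation), with 1 model of 16 groups and 32 residual degrees of freedom and Benjamini-Hochberg adjustment over 15890 genes. Folds on this scale understate changes of low genes. An exact test of 3 against 3 libraries cannot go below p = 0.1, and none was used. The 8 genes, the pathway and marker lists and the tests were chosen with earlier results of these data known. Genes named from the pathway lists are those called with cocaine, at most 5 by FDR, and for Tat and each compound the 2 called genes of each list with the largest absolute change. A few genes that this rule or the lists would name are not reported here. The called cell type markers that are named were chosen after their values were seen. The fit was tested on simulated data. Pairing by replicate number was checked by correlating the deviations of same-numbered libraries from their group means. Alternatives were other pseudocounts, level minima and scalings, no trend, a replicate block, the compared groups alone and leaving out each library. Means over fewer backgrounds, and list counts without Cocaine replicate 3, were chosen after seeing the data.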

Additional observations from a re-analysis of the deposited data

How the results depend on the processing

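Over 59 gene differences, 530 of 541 values under other settings and 783 of 864 values with a library left out kept their direction and their side of the threshold. No called difference reversed. Without the Tazemetostat backgrounds the uncalled cocaine difference of Maoa was 0.023 in place of -0.02. The number of the 5 genes called was 2 in place of 1 for Tat against Control after quantile normalization, where Maoa passed (FDR 0.0466), and 0 in place of 1 for Tat-Cocaine against Control in a fit to those groups alone. In fits restricted to the groups being compared, 3 single Maoa calls and the Ppp1r1b call with Senicapoc were also lost, with FDR values of 0.0559 to 0.0741, and the Maoa call for Tat-Senicapoc against Senicapoc failed with no level minimum (FDR 0.0573).

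The replicate numbers did not pair the libraries over the pooled comparisons, where 13 of 18 same-numbered pairs for cocaine and 8 of 15 for Tat had deviations correlated above 0.1. By that cut of 0.1, for which no chance level was set, they did in 9 of the 24 single comparisons, where every pair was above it. The block was a replicate effect shared by all 16 groups and not a pairing within a comparison. In those 9 the block added 3 calls among 45 gene differences (Drd1, Drd2 and Maoa for Tat-Amlexanox against Amlexanox) and removed 0, and over all 24 it added 6 and removed 0, among them Drd1 for Tat-Cocaine-4OI against Tat-Cocaine (FDR 0.0466). With the replicate number as a block the count was 2 in place of 1 for Tat against Control (Maoa, FDR 0.0420) and 1 in place of 0 for Tazemetostat (Drd1), and the counts of these genes for the other 8 main comparisons stayed as they were.

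With each library left out in turn, the number called was 1 to 1 for cocaine and for 4OI, 0 to 1 for Cocaine and for Tat-Cocaine against Control, 2 to 4 for Tat, 1 to 2 for Tat against Control, 0 to 2 for Tazemetostat and 0 to 0 for the rest. Uncalled differences that crossed 0 ranged, for Cocaine against Control, from -0.51 to 0.26 (Drd2), -0.55 to 0.11 (Maob) and -0.30 to 0.047 (Ppp1r1b). For Tat against Control the range was -0.30 to 0.36 (Maob). For Tat-Cocaine against Control the ranges were -0.24 to 0.15 (Drd1), -0.011 to 0.69 (Drd2), -0.17 to 0.004 (Maoa) and -0.73 to 0.088 (Maob). They were -0.058 to 0.18 for Drd2 with 4OI, -0.04 to 0.12 (Drd1), -0.02 to 0.22 (Drd2) and -0.12 to 0.18 (Ppp1r1b) with Amlexanox, and -0.045 to 0.02 for Maoa with Senicapoc.

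Counts over all genes depended on the fit. With the block they were 95 in place of 32 for Cocaine against Control, 16 in place of 3 for Tat-Cocaine against Tat, 1906 in place of 1270 for Amlexanox, 3430 in place of 1811 for Tazemetostat and 754 in place of 184 for Senicapoc, and among the single comparisons with paired numbers 13 in place of 0 for Tat-Cocaine-4OI against Tat-4OI, 493 in place of 133 for Tat-Amlexanox against Tat and 15 in place of 0 for Senicapoc against Control. With the compared groups alone they were 0, 0, 543, 591 and 54 in the order of the first 5, and 1252 in place of 3382 for Tat and 619 in place of 2372 for Tat-Cocaine against Control. Quantile normalization gave 21 for Cocaine against Control, a minimum of 2 CPM gave 1 for Tat-Cocaine against Tat, and no minimum gave 116 for Senicapoc. Of the 53 other genes, 7 in place of 4 were called for cocaine, 15 in place of 8 for Tazemetostat and 1 in place of 0 for Senicapoc with the block, 0 to 4 in place of 2 for Amlexanox, and 3 in place of 10 (Tat against Control), 0 in place of 8 (Tat-Cocaine against Control) and 2 in place of 8 (Tazemetostat) with the compared groups alone. Quantile normalization moved the share of calls that were higher from 32.5 to 44.1% for cocaine, 18.8 to 33.3% for Cocaine against Control, 52.9 to 40.8% for Tat, 68.5 to 54.6% for Tat against Control and 51.5 to 63.3% for Amlexanox. The cause of these changes was not tested. Read numbers of the transporters were low, at most 9 in a library, which limited their comparison, and that of the other genes less so.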
